A study of Mus musculus with 20 samples.

Results

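The 37 genes described here are the cytosolic aminoacyl-tRNA synthetases and the genes of the amino-acid stress response in macrophages generated from B cells (B-MF), macrophages generated from monocytes (Mo-MF), and cells sorted as macrophages from 4T1.2 breast tumors. They were taken by symbol, by a rule that uses no measured value but was drawn up with earlier results of these data known. The rule gave 20 tRNA synthetases, 6 stress regulators and effectors, 7 enzymes of amino acid and one-carbon synthesis, and 4 genes of transport and uptake. All 37 were present among the 15855 genes of the culture table and among the 15333 genes of the tumor table. The study asked whether bone marrow (BM) B-cell precursors of mice become macrophages under the influence of cancer. Its scRNA-seq samples were 2 libraries of B-MF and 2 of Mo-MF, generated in vitro from sorted BM B cells and from monocytes in medium conditioned by 4T1.2 cells, a mouse mammary carcinoma line, and 4 libraries of macrophages isolated from 4T1.2 tumors grown in BALB/c mice. A further 12 ATAC-seq libraries came from CSF1R+ and CSF1R- cells of BM and spleen, 3 of each kind, which the sample labels call macrophages and the study's text B-cell precursors. The labels name no genotype, drug or age for any of these groups, nor the culture or animal behind each library.

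Aminoacyl-tRNA synthetases load each tRNA with its amino acid, so every cell that makes protein needs them. When charged tRNA or amino acids run short, or when protein folding in the endoplasmic reticulum (ER) fails, kinases phosphorylate the initiation factor eIF2, general translation falls, and the mRNA of the transcription factor ATF4 is translated better. ATF4 raises genes for amino acid synthesis, amino acid transporters, many of the synthetases, and the transcription factor CHOP, encoded by Ddit3. It binds composite C/EBP-ATF sites with the core TGATGNAA, known as amino acid response elements.

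The promoters of 5 members that hold this core within the window of 250 bases before to 50 bases after the transcription start, and that of Ddit3, which holds none there, are shown to let the reader see how the core sits in them. They were taken from RefSeq on build GRCm38.p6, written 5′ to 3′ on the strand of the gene, with each match in capitals. TTGCATCA and TTTCATCA are TGATGCAA and TGATGAAA read on the opposite strand.
Asns, chr6:7693160-7693459, minus strand: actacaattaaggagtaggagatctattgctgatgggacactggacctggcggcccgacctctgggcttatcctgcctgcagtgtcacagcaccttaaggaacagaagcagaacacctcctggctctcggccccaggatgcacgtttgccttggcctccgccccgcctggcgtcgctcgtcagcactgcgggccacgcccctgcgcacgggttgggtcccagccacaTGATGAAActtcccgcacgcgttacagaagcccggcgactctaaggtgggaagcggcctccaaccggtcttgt
Chac1, chr2:119350992-119351291, plus strand: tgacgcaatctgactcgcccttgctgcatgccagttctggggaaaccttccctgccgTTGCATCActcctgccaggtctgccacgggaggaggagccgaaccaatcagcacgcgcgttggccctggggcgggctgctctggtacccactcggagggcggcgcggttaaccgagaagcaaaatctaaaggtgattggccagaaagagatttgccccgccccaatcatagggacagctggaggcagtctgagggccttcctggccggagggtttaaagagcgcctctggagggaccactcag
Nupr1, chr7:126625421-126625720, minus strand: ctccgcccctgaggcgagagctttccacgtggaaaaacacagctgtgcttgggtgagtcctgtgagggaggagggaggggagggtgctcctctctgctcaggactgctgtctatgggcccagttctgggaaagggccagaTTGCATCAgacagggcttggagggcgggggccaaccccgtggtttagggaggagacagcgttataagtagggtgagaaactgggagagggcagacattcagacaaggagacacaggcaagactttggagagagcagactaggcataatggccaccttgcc
Aars, chr8:111033592-111033891, plus strand: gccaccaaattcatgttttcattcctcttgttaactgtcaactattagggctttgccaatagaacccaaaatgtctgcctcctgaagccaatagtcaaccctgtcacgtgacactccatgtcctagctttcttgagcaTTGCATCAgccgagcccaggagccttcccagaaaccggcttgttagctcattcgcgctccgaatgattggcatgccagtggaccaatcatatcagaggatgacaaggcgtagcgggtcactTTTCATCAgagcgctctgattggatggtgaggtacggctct
Tars, chr15:11399609-11399908, minus strand: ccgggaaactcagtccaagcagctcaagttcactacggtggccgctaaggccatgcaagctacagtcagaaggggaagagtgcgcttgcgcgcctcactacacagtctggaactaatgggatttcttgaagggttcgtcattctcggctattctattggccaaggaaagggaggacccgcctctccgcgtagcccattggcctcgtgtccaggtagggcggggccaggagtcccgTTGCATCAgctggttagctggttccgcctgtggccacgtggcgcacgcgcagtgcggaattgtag
Ddit3, chr10:127290543-127290842, plus strand: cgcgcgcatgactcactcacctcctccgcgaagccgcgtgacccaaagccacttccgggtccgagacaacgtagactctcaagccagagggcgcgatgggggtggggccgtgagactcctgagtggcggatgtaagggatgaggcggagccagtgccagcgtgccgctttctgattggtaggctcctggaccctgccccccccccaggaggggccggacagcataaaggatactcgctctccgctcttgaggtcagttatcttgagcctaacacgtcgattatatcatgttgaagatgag
The matches began at -23 bases from the start in Asns, at -193 in Chac1, at -110 in Nupr1, at -15 in Tars, and at -112 and 9 in Aars. RefSeq entries were matched for 29 of the 37 members. TGATGNAA, searched on both strands, was present in the windows of 10 of these 29 (34.5%) and of 1219 of all 27025 genes with an entry (4.51%). The stricter core TGATGCAA, contained in the first, was in 7 of 29 (24.1%) and in 1.03% of all genes. Besides the 5 printed ones, Gars, Iars, Trib3, Vldlr and Yars held a match. These are counts of letters, not of binding.

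Expression is given as the mean corrected count per cell of a library: the count of a gene's transcripts after SCTransform, a regression that brings the cells of a table to a shared depth, averaged over all cells. The tables held 20798 cultured cells, 4846 to 5389 a library, and 10885 tumor cells, 2318 to 3180 a library. Median corrected counts per cell were 18350 to 19469 in the cultures and 7651 to 8266 in the tumor, and these totals are not sequencing depth. The tables were corrected separately, so levels in cultures and tumor stand side by side without a test. B-MF replicate 2 stood apart from B-MF replicate 1: it had a median of 3400.5 detected genes per cell against 3773 to 3874 in the other culture libraries, and its level was below that of B-MF replicate 1 for 35 of the 37 members and for 90.9% of 8633 genes. Libraries shared 3 to 28 cell barcodes with others of the same table.

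B-MF and Mo-MF were compared to find which members differ between macrophages of the 2 origins. Ddit3 was lower in B-MF by the widest margin, and Atf4, Nupr1 and Mthfd2 were lower by less, while 3 of the 20 synthetases were slightly higher and 2 slightly lower. Of the 28 members with a mean of at least 0.1 over the libraries, 3 were higher in B-MF, 6 were lower and 19 did not pass limma's test at an adjusted p of 0.05. Of all 8633 genes tested, 39.5% passed, 22.6% higher and 16.9% lower, so the share of members that passed (32.1%) was no larger than that of all genes. Without the filter, 4 of the 37 members were higher and 4 lower, against 1918 higher (12.1%) and 1750 lower of all 15855 genes. The median log2 difference was 0.04 over the 28 members and 0.02 over all genes tested. Differences are of log2(mean + 0.1), B-MF minus Mo-MF. The p-values rest on the spread between 2 libraries a group, which may be technical, and more on a spread shared across genes. The first has 2 degrees of freedom, and limma adds 5.92 for the second.

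Ddit3, the pro-apoptotic transcription factor CHOP downstream of ATF4, had mean corrected counts of 0.566 and 0.542 in the B-MF libraries, against 1.66 and 1.68 in the Mo-MF libraries. Both Mo-MF libraries lay far above both B-MF libraries, and the replicates were close. The log2 difference was -1.44, SE 0.0507, adjusted p = 3.47e-07, or 2.71-fold lower in B-MF on that scale. Under 18 alternative settings it lay between -1.57 and -0.68 and passed in each.

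Atf4 itself, whose activity is set mainly at translation, differed much less. Its level was 1.23 and 1.16 in B-MF, against 1.47 and 1.47 in Mo-MF, with no overlap (log2 difference -0.28, SE 0.0526, adjusted p = 0.00404). Nupr1, a small stress-induced chromatin-associated protein, had levels of 0.455 and 0.396 in B-MF, against 0.502 and 0.517 in Mo-MF. It was lower in B-MF in both libraries (log2 difference -0.22, SE 0.0644, adjusted p = 0.0295), but passed under only 11 of 17 alternatives. Sesn2, an intracellular leucine sensor that restrains mTORC1, had overlapping levels of 0.202 and 0.156 in B-MF, against 0.187 and 0.174 in Mo-MF, and its log2 difference was -0.01, 95% interval -0.19 to 0.17.

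The 2 other effectors lay below the filter and had the order of Ddit3. Trib3, a pseudokinase induced by CHOP and ATF4, was at 0.0199 and 0.0146 in B-MF, against 0.0483 and 0.046 in Mo-MF (log2 difference -0.33, SE 0.0303, adjusted p = 0.0115 by limma without the filter). Chac1, which degrades glutathione, was at 0.00382 and 0.00338 in B-MF, against 0.00805 and 0.00835 in Mo-MF (log2 difference -0.06, adjusted p = 0.0752 by limma without the filter). Both were below 0.1 in every culture library, and in both the Mo-MF libraries were the higher ones. Summed over the 6 regulators and effectors, mean corrected counts were 2.48 and 2.27 in B-MF, against 3.87 and 3.89 in Mo-MF.

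**Figure D1:**
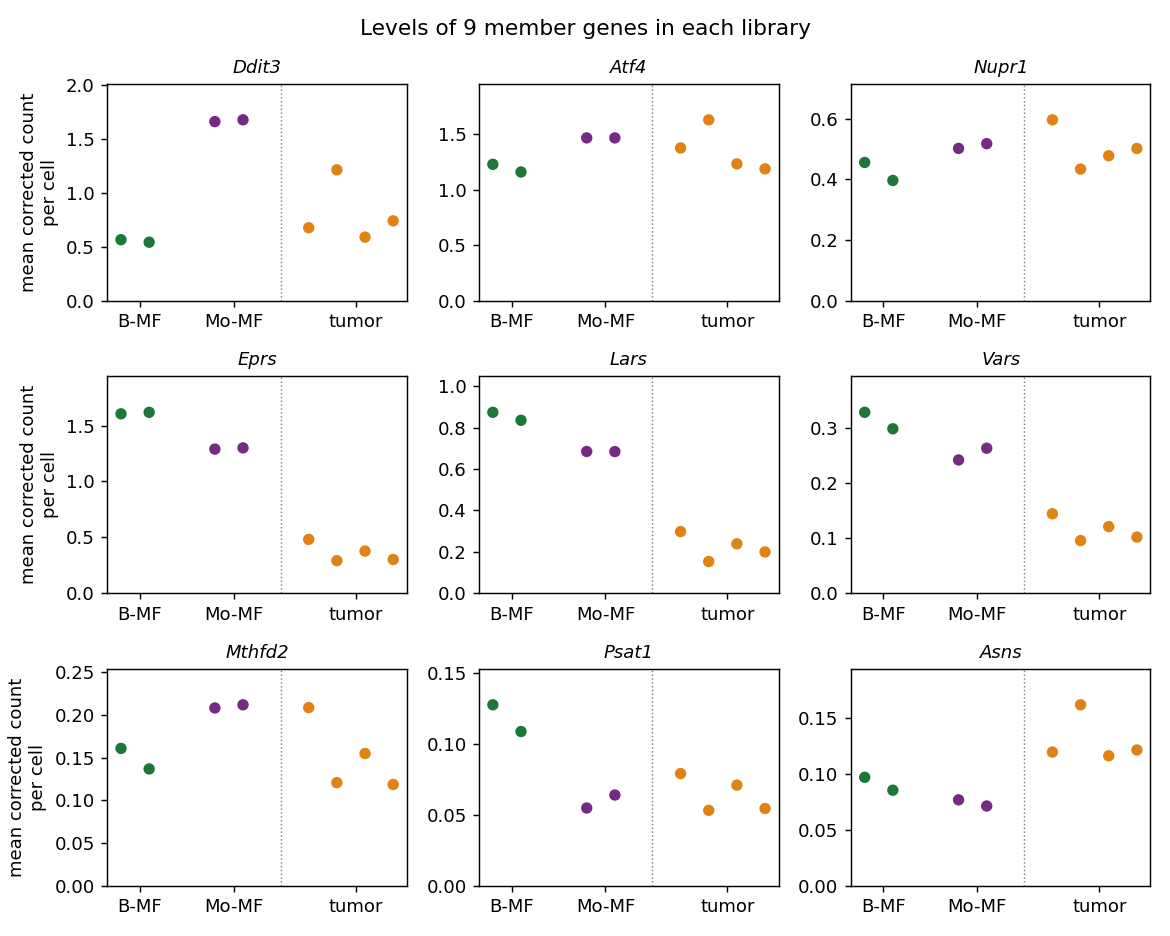
Mean corrected counts per cell (y axis, linear from 0) of 9 members in the 2 B-MF, 2 Mo-MF and 4 tumor libraries, 1 point a library, with the tumor table corrected separately. Ddit3 lay at 0.542 to 0.566 in B-MF, against 1.66 to 1.68 in Mo-MF, whereas Eprs, Lars and Vars were higher in both B-MF libraries than in either Mo-MF library.

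The synthetases together differed little between the 2 origins. Their summed level was 12.7 and 12.1 in B-MF, against 11.8 and 11.7 in Mo-MF, and the median log2 difference of the 20 genes, all of which were tested, was 0.07. Of these, 3 were higher in B-MF, 2 lower and 15 did not pass. Eprs, which loads glutamate and proline and also serves a translation-silencing complex in myeloid cells, was at 1.6 and 1.62 in B-MF, against 1.29 and 1.3 in Mo-MF (log2 difference 0.30, SE 0.049, adjusted p = 0.00203). Lars, the leucine enzyme, was at 0.875 and 0.836 in B-MF, against 0.685 and 0.685 in Mo-MF (log2 difference 0.28, SE 0.051, adjusted p = 0.00308). Vars, the valine enzyme, was at 0.328 and 0.298 in B-MF, against 0.242 and 0.263 in Mo-MF (log2 difference 0.23, SE 0.0596, adjusted p = 0.0168).

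For Eprs and Lars the gap between the groups was several times the gap between replicates, and both passed under all 18 alternatives, while Vars passed under 13 of 17. The 2 lower ones were Aars, the alanine enzyme, with 0.47 and 0.437 in B-MF, against 0.519 and 0.517 in Mo-MF (log2 difference -0.16, SE 0.0535, adjusted p = 0.0448), and Cars, the cysteine enzyme, with 0.287 and 0.254 in B-MF, against 0.318 and 0.318 in Mo-MF (log2 difference -0.17, SE 0.0586, adjusted p = 0.0456). Each passed under 9 of 17 alternatives. B-MF replicate 2 was the lowest library for both. The other 15 had log2 differences from -0.11 for Dars to 0.12 for Gars. Without B-MF replicate 2, where B-MF is 1 library and the Mo-MF pair alone gives the spread, 15 of the 28 members and 44.2% of all genes were higher in B-MF. Without Mo-MF replicate 1 or 2, 3 members were lower, and 10.1 or 11.8% of genes.

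The 15 synthetases that did not pass were detected in all 4 culture libraries. Gars, the glycine enzyme, was at 0.457 and 0.442 in B-MF, against 0.408 and 0.403 in Mo-MF (log2 difference 0.12, 95% interval 0.00 to 0.24). Dars, the aspartate enzyme, was at 0.586 and 0.581 in B-MF, against 0.651 and 0.627 in Mo-MF (log2 difference -0.11, 95% interval -0.23 to 0.00). Tars, the threonine enzyme whose promoter is shown above, was at 0.421 and 0.374 in B-MF, against 0.376 and 0.35 in Mo-MF (log2 difference 0.10, 95% interval -0.04 to 0.25). In Gars and Dars the groups did not overlap, in opposite directions, and in Tars they did.

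Farsa and Farsb, the chains of the phenylalanine enzyme, were measured apart. Farsa was at 0.552 and 0.524 in B-MF, against 0.515 and 0.496 in Mo-MF, and Farsb at 0.525 and 0.50, against 0.466 and 0.492. Nars, the asparagine enzyme, was at 1.35 and 1.37 in B-MF, against 1.3 and 1.31 in Mo-MF. Sars, the serine enzyme, was at 1.42 and 1.32 in B-MF, against 1.45 and 1.43 in Mo-MF. For these 4 the intervals of the log2 difference spanned 0, the lowest bound being -0.19 for Sars and the highest 0.20 for Farsb. Hars, Iars, Kars, Mars, Qars, Rars, Wars and Yars had log2 differences of 0.02 (Wars) to 0.11 (Iars).

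Among the enzymes of synthesis, Mthfd2 was the one member that passed. Mthfd2, a mitochondrial enzyme of the folate cycle, was at 0.161 and 0.137 in B-MF, against 0.208 and 0.212 in Mo-MF (log2 difference -0.32, SE 0.0603, adjusted p = 0.00389), and passed under 16 of 17 alternatives. Psph, which makes serine from phosphoserine, and Shmt2, which moves a carbon from serine to folate in mitochondria, did not pass. Psph was at 0.259 and 0.214 in B-MF, against 0.214 and 0.214 in Mo-MF (log2 difference 0.10, 95% interval -0.06 to 0.26), and Shmt2 at 0.197 and 0.159 in B-MF, against 0.163 and 0.171 in Mo-MF (log2 difference 0.05, 95% interval -0.11 to 0.22).

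The remaining enzymes fell below the filter, and of these Psat1 passed without it. Psat1, the aminotransferase of serine synthesis, was at 0.127 and 0.109 in B-MF, against 0.0547 and 0.0638 in Mo-MF (log2 difference 0.45, SE 0.0601, adjusted p = 0.0228 by limma without the filter). Asns, the asparagine synthetase, was at 0.0972 and 0.0856 in B-MF, against 0.077 and 0.0714 in Mo-MF, with the higher values in B-MF but not passing (adjusted p = 0.117 by limma without the filter). Phgdh, which opens serine synthesis, did not pass either, with 0.0271 and 0.0233 in B-MF, against 0.033 and 0.0375 in Mo-MF (adjusted p = 0.0887 by limma without the filter). Aldh18a1, of proline synthesis, was at 0.0332 and 0.0252 in B-MF, against 0.0328 and 0.0369 in Mo-MF, with no gap between the groups beyond that between replicates.

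Slc3a2, the heavy chain shared by several amino acid transporters, was at 6.12 and 6.06 in B-MF, against 6.39 and 6.53 in Mo-MF. The Mo-MF libraries were slightly higher, but the difference did not pass (log2 difference -0.08, 95% interval -0.20 to 0.03). Its leucine-carrying partner Slc7a5 was scarce, at 0.029 and 0.0223 in B-MF, against 0.0225 and 0.0189 in Mo-MF. Slc7a1, a carrier of cationic amino acids, was at 0.0903 and 0.076 in B-MF, against 0.0557 and 0.0625 in Mo-MF. None of the 3 transport genes below the filter passed without it. Vldlr, a lipoprotein receptor that ATF4 can induce, was nearly undetected, at 0.0042 and 0.00188 in B-MF, against 0.00103 and 0.0013 in Mo-MF.

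**Figure D2:**
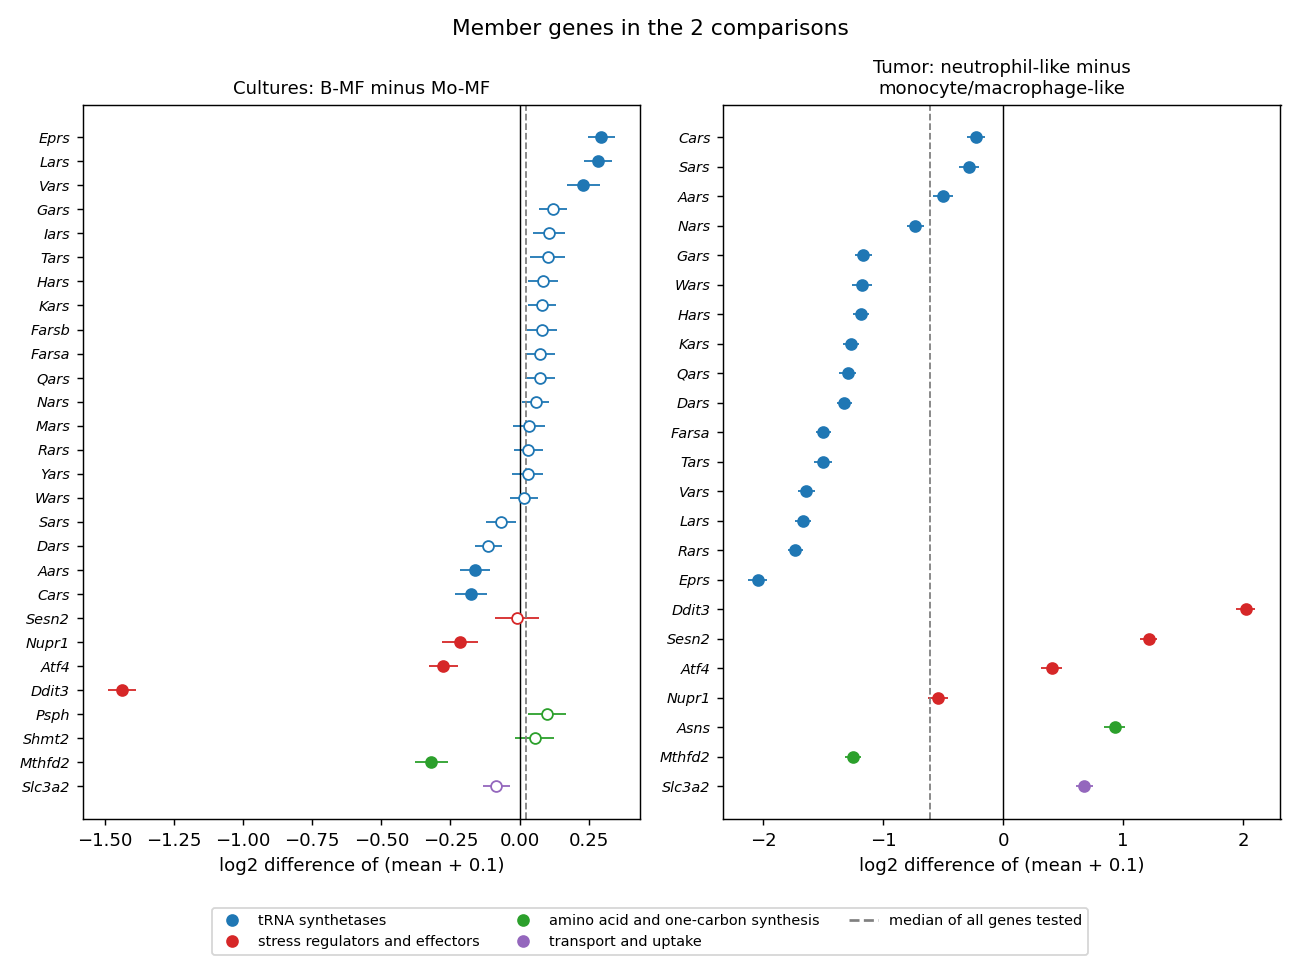
Log2 differences of the tested members, with the SE as bars, for B-MF minus Mo-MF (28 members) and, within the tumor, for neutrophil-like minus monocyte/macrophage-like cells (23 members, 12 of them above the filter only through the class where they were high). Filled points passed limma's test at an adjusted p of 0.05, and the dashed line is the median of all genes tested (0.02 and -0.61). Ddit3 was the farthest below the line in the cultures (-1.44) and the farthest above it in the tumor (2.02).

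Related genes outside the 37 were followed in lists of the same pathways, drawn up with earlier results of these data known, so that their counts are descriptions. Of 12 tested genes of the list of other ATF4-linked genes, none was higher in B-MF while 7 were lower, with a median log2 difference of -0.19, against 22.6% higher and 16.9% lower among all 8633 genes and a median of 0.02. Without the filter on low values, 0 of 20 were higher and 5 lower, with a median of -0.09. Gadd45a, a stress and DNA damage gene, was at 0.569 and 0.482 in B-MF, against 1.8 and 1.73 in Mo-MF (log2 difference -1.58, SE 0.0717, adjusted p = 1.27e-06). Slc7a11, the cystine importer, was at 0.0516 and 0.0381 in B-MF, against 0.211 and 0.194 in Mo-MF and reached the filter only through Mo-MF (log2 difference -1.07, SE 0.0625, adjusted p = 0.00542 by limma without the filter). Atf5, a relative of ATF4, was at 0.92 and 0.801 in B-MF, against 1.61 and 1.57 in Mo-MF (log2 difference -0.82, SE 0.0672, adjusted p = 3.90e-05). Gadd45a and Atf5, like Slc7a11, had lower values in both B-MF libraries than in either Mo-MF library.

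A list of 8 ER chaperone and quality-control genes, of the ATF6 and XBP1 arms, was also counted. Of the 8, 6 were higher in B-MF, and 1 was lower, with a median log2 difference of 0.30, beside the 22.6% higher and 16.9% lower among all genes. Hsp90b1, the ER chaperone GRP94, was at 15.6 and 15.8 in B-MF, against 10.3 and 10.5 in Mo-MF (log2 difference 0.59, SE 0.0497, adjusted p = 4.61e-05). Sdf2l1, another ER protein of folding, was at 3.25 and 3.14 in B-MF, against 2.33 and 2.34 in Mo-MF (log2 difference 0.44, SE 0.0506, adjusted p = 0.000285). The gene that was lower was Edem1, which sends misfolded proteins to degradation, with 1.17 and 1.18 in B-MF, against 1.62 and 1.6 in Mo-MF (log2 difference -0.43, SE 0.0493, adjusted p = 0.000289). Of 13 genes of eIF2 control, 3 were higher and 1 lower, and of 12 mitochondrial synthetase genes 1 and 1, a share passing of 30.8 and 16.7% against 39.5% of all genes. None of the 3 partners of the synthetase complex passed.

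Markers of other cell types also differed between the cultures. The summed level of 8 neutrophil markers was 1.07 and 0.724 in B-MF, with 3 of the 8 at 0 in each library, against 164 and 129 in Mo-MF. That of 5 monocyte markers was 0.622 and 0.620 in B-MF, where 1 was at 0, against 5.15 and 5.21 in Mo-MF. The 8 macrophage markers were detected in each library, at 142 and 138 in B-MF, against 96 and 95.2 in Mo-MF. The 6 B-cell markers summed to 0.130 and 0.121 in B-MF, against 0.113 and 0.104 in Mo-MF, where 3 and 4 of them were at 0. Epcam, Krt8, Krt18 and Krt19 were not in the culture table.

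Clusters of cells were formed without the 37 members and named by listed markers, to see where in each culture the members lay. With the clusters of other cell types left out, the log2 difference of Ddit3 was -1.44, and with the proliferating clusters and those of most and fewest mitochondrial counts left out too it was -1.48. In the neutrophil-like cluster, which held Mo-MF cells, Ddit3 was at 1.83 and 1.72, close to the mean of the whole libraries. In the largest Mo-MF cluster, led by Bex1 and Arg1, it was at 2.01 and 1.99. That cluster raised enough macrophage markers to meet the naming rule but was left unnamed, since Acp5, a listed osteoclast marker, was among its leading genes. Ddit3 was lower in the other 2 large Mo-MF clusters, at 1.18 and 1.06 in that led by Ly6a and 1.35 and 1.48 in a macrophage-like one. The 3 large B-MF clusters, all macrophage-like, lay at 0.514 and 0.49, 0.548 and 0.548, and 0.623 and 0.516, below each of these.

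Ddit3 was also followed within clusters that held cells of both origins. Among proliferating cells it was at 0.509 and 0.574 in B-MF, against 1.85 and 1.88 in Mo-MF. In the macrophage-like cluster of most mitochondrial counts, with 304 and 259 B-MF and 158 and 149 Mo-MF cells, it was at 0.799 and 0.819 in B-MF, against 1.08 and 1.26 in Mo-MF. In both clusters the Mo-MF libraries were the higher ones, by less in the second. The cluster of few mitochondrial counts, led by Fth1 and with Ddit3 among its 10 leading genes, narrowed the gap, with 1.3 and 1.07 in 27 and 14 B-MF cells and 1.64 and 2.08 in 236 and 228 Mo-MF cells. The 13 and 14 B-MF cells that fell into the Bex1 and Arg1 cluster were at 1.15 and 1.79. These are values of 2 libraries a group and were not tested.

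The proliferating cluster, led by Ube2c, Cenpf and Birc5, had high levels of nearly all members. It held 287 and 272 B-MF and 194 and 236 Mo-MF cells, and it was singled out after its values were seen, so these are descriptions with no test. In all 4 libraries, 34 of the 37 members were higher in it than in the other cells, and the exceptions were Ddit3, Sesn2 and Vldlr. With a mean of at least 0.1 in the other cells, 26 of 28 members (92.9%) and 5513 of 8530 genes (64.6%) were higher in all 4. The median log2 ratio, again with 0.1 added to each mean, was 0.61 over these 28 members and 0.26 over these genes. For 18 of the 28 (64.3%) and 23.9% of the genes the median ratio over the libraries was above 0.5 on the log2 scale.

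The enzymes of serine, folate and asparagine metabolism were far higher in it. Mthfd2 was at 1.13, 1.06, 1.43 and 1.51 in proliferating cells of B-MF replicates 1 and 2 and Mo-MF replicates 1 and 2, and at 0.105, 0.0873, 0.157 and 0.153 in the other cells of the same libraries, 9.11 to 12.1 times higher. Psat1 was at 0.787, 0.724, 0.49 and 0.623 against 0.0891, 0.0754, 0.0365 and 0.0382, 8.84 to 16.3 times higher. Phgdh was at 0.167, 0.221, 0.50 and 0.555 against 0.019, 0.0127, 0.0135 and 0.0138, 8.81 to 40.3 times higher. Each of the 3 was higher in proliferating cells of every library, and Phgdh was higher in proliferating Mo-MF than in proliferating B-MF cells.

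Asns was at 0.429, 0.529, 0.557 and 0.585 in proliferating cells and 0.078, 0.0617, 0.057 and 0.0479 in the others, 5.5 to 12.2 times higher. Shmt2 was 3.71 to 4.34 times higher and Aldh18a1 2.85 to 5.59 times. All 7 enzymes were higher in all 4 libraries, with a median log2 ratio of 1.96.

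The carriers Slc7a5 and Slc7a1 were 14.7 to 22.4 and 4.65 to 7.84 times higher in proliferating cells, whereas Slc3a2 did not reach a median log2 ratio of 0.5. All 20 synthetases were higher in each library, with a median log2 ratio of 0.61 and a summed level of 19.6, 18.7, 19.5 and 18.9. The steepest by median ratio were Vars (2.87 to 3.12 times), Cars (2.56 to 2.71 times) and Mars (2.03 to 2.8 times), with Gars (2.24 to 2.46 times) ahead of Mars once 0.1 was added to each mean, and the flattest were Farsb (1.03 to 1.25 times) and Qars (1.03 to 1.45 times).

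Among the regulators, Atf4 was at 1.78, 1.75, 3.11 and 3.01 in proliferating cells and 1.2, 1.13, 1.4 and 1.39 in the others, 1.49 to 2.22 times higher. Trib3 was 3.8 to 8.38 times higher, and Chac1 was at 0.0515 to 0.114 against 0.000791 to 0.00451. Ddit3, by contrast, was 0.894 to 1.13 times its level in the other cells.

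**Figure D3:**
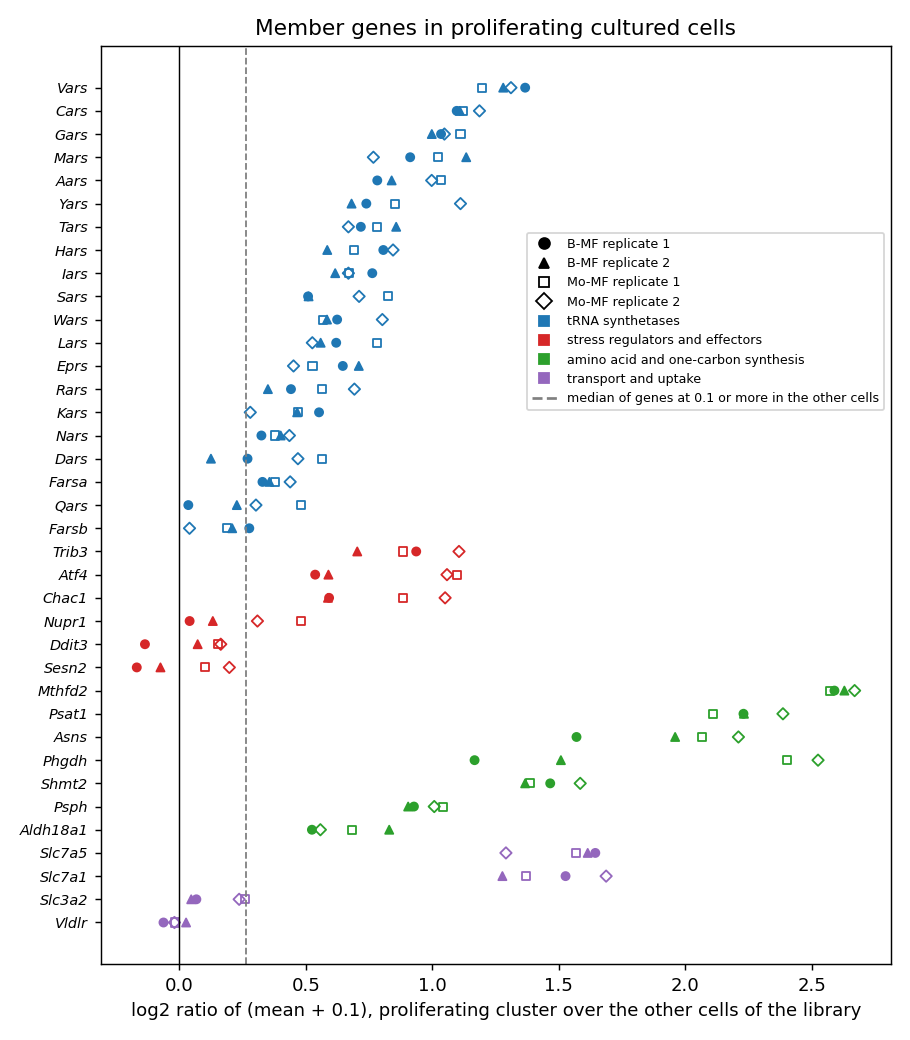
Log2 ratio of each member's mean in the proliferating cluster to that in the other cells of the same library (0.1 added to each mean), 1 point for each of the 2 B-MF and 2 Mo-MF libraries. All 7 synthesis enzymes and all 20 synthetases lay above 0 in the 4 libraries, and Ddit3 lay around 0 (-0.14 to 0.16).

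Cells of the tumor libraries were described as macrophages in the labels, but clusters with neutrophil markers made up 37.3, 63.1, 48.4 and 56.5% of the cells of libraries 2 to 5, the numbers that the table's columns carry. Monocyte/macrophage-like clusters made up 31.6, 17.6, 23.5 and 19.7%. A further cluster, with Arg1 among its leading genes, raised enough of the macrophage and of the monocyte markers to meet the naming rule. It was left unnamed because its leading genes included Il7r, a listed T/NK cell marker, and so it is not in that class. This Arg1 cluster made up 28.3, 15.3, 21.5 and 17.9% of the cells. The 8 neutrophil markers summed to 446 to 793 over the libraries and the 8 macrophage markers to 10.6 to 25.1. Over all cells, Ddit3 was at 0.676, 1.21, 0.589 and 0.741 in libraries 2 to 5, Atf4 at 1.37, 1.63, 1.23 and 1.19, and the summed synthetases at 5.55, 3.98, 4.85 and 4.15. Library 3, with the largest share of neutrophil-like cells, had the highest Ddit3 and Atf4 and the lowest synthetase sum, and library 2, with the smallest share, had the highest synthetase sum. The order did not hold throughout, since library 4, not library 2, had the lowest Ddit3. Atf4 was lowest in library 5, where neutrophil-like cells made up 56.5%.

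The neutrophil-like cells were set against the monocyte/macrophage-like cells of the same library to show how the members divide among tumor myeloid cells. Neutrophil-like cells had high Ddit3, Sesn2, Asns and Slc3a2 and low synthetases. All 23 members with a mean of at least 0.1 passed limma's test with the library as a block, 5 higher and 18 lower in neutrophil-like cells, as did 89.1% of all 5967 genes tested, 21.0% higher and 68.2% lower. Of the 23, 12 reached that mean only through the class where they were high, so these had to differ. With no filter, 6 of the 37 members were higher and 28 lower, against 11.8% and 52.7% of 15229 genes. Over these the median log2 difference was -0.73 for the members and -0.16 for all genes. The classes were themselves formed from expression of the same cells, so p-values say how steady a difference was over the 4 libraries. The median of detected genes per cell was 1328 to 1389 over the libraries in neutrophil-like cells and 2521 to 2605 in monocyte/macrophage-like cells.

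Directions are therefore also given with log2 values centred on the median gene, which moved all differences by 0.63. After centring, 7 of the 23 members were higher and 13 lower, against 44.0% higher and 41.9% lower of all 5967 genes tested. Among all genes the higher share of calls went from 23.5 to 51.2%, a balance that centring itself sets. The part of depth and RNA content in these differences was not tested.

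Ddit3 was at 1.29, 1.69, 0.947 and 1.13 in neutrophil-like cells of libraries 2 to 5 and 0.26, 0.284, 0.201 and 0.184 in monocyte/macrophage-like cells. Every neutrophil-like value lay above every value of the other class (log2 difference 2.02, SE 0.0791, adjusted p = 1.51e-09). With clusters formed at a resolution of 1 the difference was 1.47. There a cluster led by Echdc3, Ccdc126 and Ciart was unnamed and so outside the neutrophil-like class. The other class changed too, since a cluster of 1008 cells led by Thbs1, Havcr2 and Sdc1 was named monocyte and so inside it. Thbs1 and Sdc1 are leading genes of the unnamed Arg1 cluster of the main clustering. The part of each change in the difference was not tested. With the unnamed Arg1 cluster of the main clustering counted as monocyte/macrophage-like, the difference was 1.76. Sesn2 followed Ddit3, with 0.409, 0.498, 0.457 and 0.476 against 0.0934, 0.156, 0.146 and 0.177 (log2 difference 1.21, SE 0.0713, adjusted p = 2.85e-08).

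Atf4 was at 1.47, 1.87, 1.3 and 1.31 in neutrophil-like and 1.25, 1.09, 1.1 and 0.941 in monocyte/macrophage-like cells (log2 difference 0.40, SE 0.0887, adjusted p = 0.00127), higher in the neutrophil-like cells of each library. It did not pass when the logarithms of single cells were averaged (log2 difference 0.13). Nupr1 was lower in neutrophil-like cells, with 0.421, 0.349, 0.386 and 0.373 against 0.584, 0.609, 0.519 and 0.706 (log2 difference -0.54, SE 0.0817, adjusted p = 7.68e-05), and was at 0.09, not passing, after centring.

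Asns was at 0.184, 0.226, 0.158 and 0.178 in neutrophil-like cells and 0.0666, 0.0367, 0.057 and 0.0405 in monocyte/macrophage-like cells, with no overlap (log2 difference 0.93, SE 0.0998, adjusted p = 0.000925 by limma without the filter). Mthfd2 was the reverse, at 0.0472, 0.0437, 0.039 and 0.0342 against 0.286, 0.235, 0.241 and 0.189 (log2 difference -1.25, SE 0.052, adjusted p = 3.87e-05 by limma without the filter). Each reached the filter only through the class where it was high. Slc3a2 was higher in neutrophil-like cells, at 3.07, 2.66, 2.46 and 2.97 against 1.98, 1.71, 1.54 and 1.6 (log2 difference 0.68, SE 0.0679, adjusted p = 2.61e-06).

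The synthetases were lower in neutrophil-like cells. Of the 20, 19 were lower in each library, with Cars the exception (higher in library 3), as were 57.5% of all genes, and all 20 passed as lower without the filter, with a median log2 difference of -1.23. With the filter 16 were tested and were lower, 10 of them above it only through monocyte/macrophage-like cells. Their summed level over the 20 genes was 2.45, 2.56, 2.64 and 2.46 in neutrophil-like and 8.29, 7.12, 7.75 and 6.91 in monocyte/macrophage-like cells. On the scale of log2(mean + 0.1) Eprs differed most, at 0.106, 0.119, 0.113 and 0.0991 against 0.921, 0.724, 0.733 and 0.698 (log2 difference -2.05, SE 0.0771, adjusted p = 1.17e-09), followed by Rars (-1.73), Lars (-1.67) and Vars (-1.64), but by ratio of means Iars (15.9 times lower), Vars (11.8 times) and Tars (11.3 times) differed more than Eprs (7.03 times). Cars (-0.23, adjusted p = 0.0394 by limma without the filter) and Sars (-0.28, adjusted p = 0.0083 by limma) differed least. Cars passed as lower under 10 of 16 alternatives, and neither without library 4 (-0.19, adjusted p = 0.0816) nor without library 5 (-0.21, adjusted p = 0.0634 by limma). Sars passed as lower under 14 of 16, and with means scaled to the same total its adjusted p was 0.0721 by limma.

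Proliferation markers moved with this contrast. The 8 of them, none at 0 in any library, summed to 0.353 to 0.434 in neutrophil-like and 1.93 to 3.42 in monocyte/macrophage-like cells. In cells with no count of any of the 8, which were 85.6 to 86.2% of the former and 61.7 to 65.4% of the latter, the summed synthetases were at 2.21, 2.52, 2.53 and 2.32 against 7.69, 6.23, 6.98 and 6.57. Eprs was lower there by a log2 difference of -1.97 (adjusted p = 5.96e-10 by limma), Cars did not pass (-0.14, adjusted p = 0.157 by limma), and 67.4% of all genes were lower. This restriction was added after the data were seen.

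Relative to the median gene, Cars and Sars were higher (0.41 and 0.35), and Aars (0.13) and Nars (-0.10) did not pass. The other 14 members lay below the filter, and 4 of them were synthetases: Farsb, Iars, Mars and Yars.

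The levels of these 14 follow. Iars, the isoleucine enzyme, was at 0.016, 0.00752, 0.0104 and 0.0118 in neutrophil-like cells of libraries 2 to 5 against 0.221, 0.174, 0.189 and 0.144, and Farsb at 0.0278, 0.0123, 0.0104 and 0.00531 against 0.179, 0.144, 0.157 and 0.147. Psat1 was at 0.0211, 0.0144, 0.0268 and 0.0118 against 0.156, 0.169, 0.132 and 0.122, and Shmt2 at 0.0219, 0.0212, 0.00606 and 0.0153 against 0.146, 0.0978, 0.127 and 0.0929. In these 4 every neutrophil-like value lay below every monocyte/macrophage-like value. Chac1 had the reverse order, at 0.0278, 0.0417, 0.0303 and 0.0407 against 0.0119, 0.00733, 0.00891 and 0.00507, as did Trib3, at 0.0278, 0.0396, 0.032 and 0.0366 against 0.0258, 0.00244, 0.0232 and 0.0118. Slc7a5 overlapped, at 0.0472, 0.0745, 0.0641 and 0.046 against 0.0845, 0.0489, 0.0749 and 0.0659. Phgdh, Aldh18a1, Psph, Slc7a1, Mars and Yars were lower in the neutrophil-like cells of each library, and Vldlr was at 0 in both classes of 3 libraries.

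**Figure D4:**
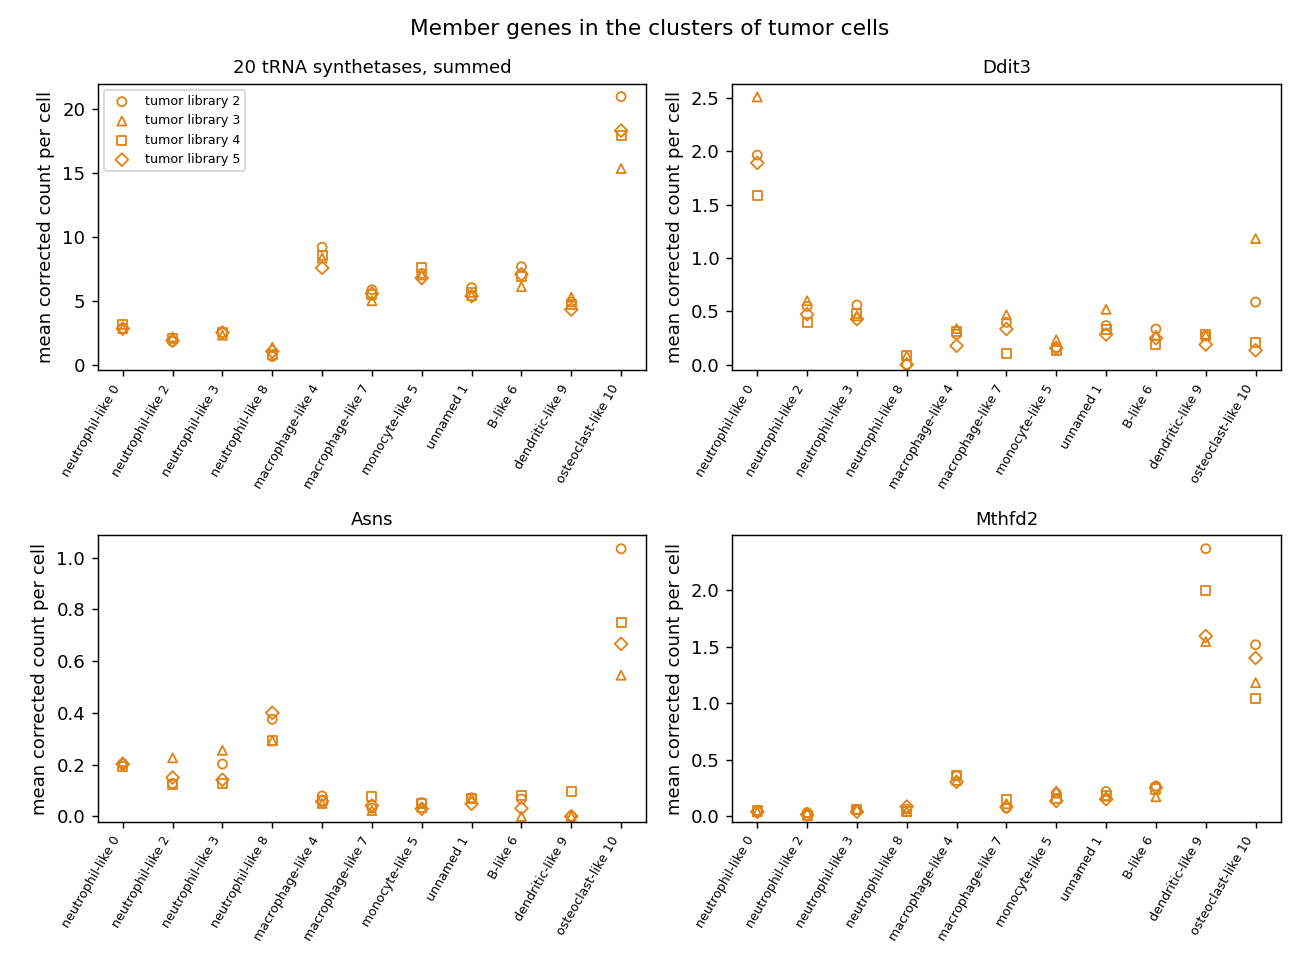
Mean corrected counts per cell of the summed synthetases, Ddit3, Asns and Mthfd2 in each tumor cluster, 1 point a library, with clusters formed without the members. Ddit3 peaked in 1 neutrophil-like cluster (1.59 to 2.51), the summed synthetases in the osteoclast-like cluster (15.4 to 21) and Mthfd2 in the dendritic cell-like cluster (1.55 to 2.37). The osteoclast-like cluster also raised proliferation markers.

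Within the neutrophil-like class the members were not uniform. Ddit3 was at 1.96, 2.51, 1.59 and 1.89 in the cluster led by Ccdc126, Ciart and Hcar2, where Ddit3 itself ranked among the 10 leading genes, although it had not been used to form the clusters. In the cluster led by Ifit1 and G0s2 it was at 0.546, 0.598, 0.391 and 0.472, and in that led by Pglyrp1 and Lrg1 at 0.558, 0.457, 0.48 and 0.426. In the cluster of granule genes (Camp, Ltf, Ngp), which mark immature neutrophils, with 16, 48, 24 and 35 cells in libraries 2 to 5, it was at 0, 0.0833, 0.0833 and 0. The highest Ddit3 at this resolution thus belonged to 1 cluster of the class. The clusters led by Ifit1 and by Pglyrp1 were also above the monocyte/macrophage-like cells of every library, and the granule cluster was not.

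Atf4 was also high in the first of these clusters, at 1.95, 2.44, 1.82 and 1.81, against 0.926, 1.02, 0.911 and 0.848 in that led by Ifit1 and 0.312, 0.354, 0.208 and 0.286 in the granule cluster. Asns did not follow Ddit3 and Atf4 there. In the granule cluster, where Ddit3 and Atf4 were lowest, it was at 0.375, 0.292, 0.292 and 0.40, above its 0.204, 0.212, 0.192 and 0.201 in the cluster of high Ddit3. The granule cluster also had the lowest synthetase sums of the 11 clusters, 0.625, 1.35, 0.792 and 1.03.

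Outside these classes, the osteoclast-like cluster, led by Ctsk and Acp5 and of 29, 11, 24 and 15 cells, had summed synthetases of 21, 15.4, 18 and 18.3, Asns at 1.03, 0.545, 0.75 and 0.667 and Mthfd2 at 1.52, 1.18, 1.04 and 1.4. The dendritic cell-like cluster of 30, 22, 21 and 32 cells had Mthfd2 at 2.37, 1.55, 2.0 and 1.59, but its synthetase sum was only 4.9, 5.27, 4.71 and 4.31. The macrophage-like cluster led by C1qa had synthetase sums of 9.19, 8.35, 8.52 and 7.58, and the unnamed Arg1 cluster 6.02, 5.4, 5.61 and 5.36, with Ddit3 at 0.366, 0.518, 0.327 and 0.282. The osteoclast-like and C1qa clusters also raised enough proliferation markers to meet the naming rule, and the dendritic cell-like and Arg1 clusters did not. The part of proliferation in these levels was not tested. Arg1 also led the culture cluster with the highest Ddit3 of the large clusters, but the tables were corrected separately and the clusters were not compared.

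Of the other pathway genes in the tumor, 6 of 10 tested ATF4-linked genes were higher in neutrophil-like cells and 3 lower, with a median log2 difference of 0.43, against 21.0% higher and 68.2% lower among all genes tested. Without the filter 5 of 20 were higher and 7 lower, with a median of -0.01, against 11.8% higher and 52.7% lower of all 15229 genes and a median of -0.16. Gadd45a was at 3.33, 2.63, 2.9 and 2.74 against 0.304, 0.362, 0.294 and 0.333 (log2 difference 2.82, SE 0.0866, adjusted p = 3.50e-10). Ppp1r15a, the stress-induced regulatory subunit of the eIF2 phosphatase, was at 4.63, 4.85, 3.73 and 4.04 against 0.965, 1.38, 1.33 and 1.15 (log2 difference 1.76, SE 0.101, adjusted p = 2.29e-08). Both were higher in the neutrophil-like cells of every library.

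Of 8 tested genes of eIF2 control, 2 were higher and 5 lower, among the latter Eif2s1, the alpha subunit of eIF2 (-1.88, adjusted p = 1.63e-09 by limma). Of 8 ER stress genes 1 was higher and 6 lower, shares close to the 21.0 and 68.2% of all genes, as were those of eIF2 control. Sdf2l1, above the filter only through monocyte/macrophage-like cells, was at -2.15 (adjusted p = 4.93e-05 without the filter) and Hsp90b1 at -1.94 (adjusted p = 1.11e-07), both by limma. Aimp1, a scaffold of the multi-synthetase complex, was at 0.162, 0.148, 0.156 and 0.15 against 1.19, 1.29, 1.19 and 1.09 (log2 difference -2.34, SE 0.0659, adjusted p = 2.35e-10), or 7.72 times lower by ratio of means. Of 20 mitochondrial synthetase genes 1 reached the filter and did not pass, but without the filter 15 were lower and none higher, against 52.7 and 11.8% of all genes.

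In ATAC-seq of B-cell precursors, the promoters of most members were accessible in every library. Each library's list held 43407 to 76530 peaks, 65832 to 76530 in BM and 43407 to 50392 in spleen. A peak overlapped the promoter window, by at least 1 base, in all 12 libraries for 25 of the 29 members with an entry (86.2%), against 35.0% of all genes and 87.5% of the 6869 genes whose culture mean reached 0.1. The share of members was close to that of genes of that level. Atf4 and Nupr1 had no peak in any library, Vldlr had one in 1 and Asns in 11.

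Fold enrichment over background, as MACS gave it and with 0 where no peak was called, was compared between tissues without a test, since the lists hold no read counts. At Asns it was 15.1 to 19.5 in the 6 BM libraries (median 17.6) and 0 to 7.31 in the 6 spleen libraries (median 5.10). Asns was the 1 member of 27 with a peak whose BM libraries all lay above the spleen libraries, a pattern of 11.6% of 12430 genes. Chac1 leaned the same way with overlap, at 11.6 to 16.6 in BM and 6.72 to 13.8 in spleen.

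The opposite order, spleen above BM without overlap, held for 4 members and 19.9% of genes. They were Ddit3 (11.7 to 13.1 in BM and 13.3 to 14.5 in spleen), Psat1 (21.2 to 24 and 27.6 to 30.4), Kars (18.1 to 21.9 and 22.2 to 23.9) and Mars (15.4 to 17.0 and 18.7 to 22.3). Across the 9470 genes with a peak in all libraries the median ratio of BM to spleen was 0.919. BM and spleen lists differed in length, and the part of sequencing depth was not tested.

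CSF1R+ and CSF1R- cells, 3 libraries of each in either tissue, were then compared at these promoters, without a test. In BM the CSF1R- libraries lay above the CSF1R+ libraries without overlap for 10 of the 27 members and for 23.2% of genes, and the reverse held for 0 members and 1.45% of genes. In spleen the CSF1R+ libraries were the higher ones for 7 members and 13.1% of genes, and the CSF1R- libraries for 0 members and 0.595% of genes. The members thus leaned the way of all genes in each tissue. The study's own test of read counts over all regions reported more open chromatin in CSF1R+ than in CSF1R- cells of BM. In spleen it found no difference past its threshold. Peak enrichment at promoters is a different measure, so these orders do not show which cells were more accessible. The lists held 65832 to 76530 peaks in CSF1R+ and 67890 to 73304 in CSF1R- cells of BM. Those of spleen held 49123 to 50392 and 43407 to 48893, and the part of depth in these orders was not tested.

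At Ddit3, enrichment was 11.7 to 12 in BM CSF1R+ and 12.5 to 13.1 in BM CSF1R- cells. Psat1 had 21.2 to 21.8 and 23.4 to 24 in these groups of BM, and 29.5 to 30.4 in CSF1R+ and 27.6 to 28.9 in CSF1R- cells of spleen. At Asns the spleen groups were at 5.13 to 7.31 in CSF1R+ and 0 to 5.07 in CSF1R- cells, and those of BM overlapped.

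The records of Ddit3 (chr10:127290774-127296288, plus strand) and Mars (chr10:127296221-127311786, minus strand) in the GENCODE annotation of GRCm38 share 68 bases at their 3′ ends. Reads there could be told apart only by strand, and the level of Mars, at 0.245 and 0.217 in B-MF, against 0.223 and 0.222 in Mo-MF, did not follow Ddit3. A second record named Ddit3 (chr10:127290829-127293753, plus strand) lies inside the first, where strand cannot tell reads apart. Its part in the level of Ddit3 was not tested.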

How the data were processed

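The scRNA-seq reads were processed by the authors with Cell Ranger, with STAR and mm10 named in the submitters' processing notes, and cells with at least 1000 detected genes were kept. Counts were corrected with SCTransform in Seurat, and the deposited values are natural logs, taken after adding 1 to a corrected count. Here they were turned back into corrected counts, rounded, and averaged per library and class of cells, and log2(mean + 0.1) was fitted with limma 3.58.1 (lmFit, eBayes) in R 4.3.3 over all genes averaging 0.1 or more, and p-values were adjusted by the Benjamini-Hochberg method and read at 0.05. No count model was used. Clusters were formed without the members by the Leiden algorithm (leidenalg 0.10.2, igraph 0.11.9) at a resolution of 0.5, on 20 neighbours, 30 principal components and 2000 variable genes, and were named "like" a cell type from listed markers. No doublet caller was run. The members and all lists were chosen with earlier results of these data known. All members are named or counted within their role group, and from the other lists up to 6 genes per comparison that passed, those with the largest differences.

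For ATAC-seq, the authors trimmed reads with cutadapt, aligned them to mm10 with BWA and called peaks with MACS in each of the 12 libraries. The deposited peak lists give a signal value, used here as the fold enrichment, and the −log10 of a p-value and of a q-value, not used here. The depth of each list is unknown. Promoter values of CSF1R+ and CSF1R- cells were compared by whether their libraries overlapped, a comparison added after the data were seen. In simulated data of both comparisons (8633 and 5967 genes), 100% of 100 genes changed by 1 on the log2 scale were recovered, and unchanged genes were 9.09 and 5.21% of the calls. The simulated noise was independent for each gene and library, with no shift shared by a library such as that of B-MF replicate 2. No change smaller than 1 was planted, so the check does not cover smaller differences. Alternatives were other pseudocounts, filters, scaling, clusters left out, resolutions, the block, and each library left out in turn. Python 3.11.15, numpy 2.4.6, pandas 2.3.3, scipy 1.17.1, scikit-learn 1.9.0 and matplotlib 3.10.9 were used.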

Additional observations from a re-analysis of the deposited data

Results flagged for a closer look

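In groups of 4 tumor libraries, 83 values were looked at for a library far from the other 3 by Dixon's criterion, and 5 were found, about as many as the 1 in 20 that chance gives. Over all tumor cells, Mars was at 0.0824 in library 2 and at 0.0603 to 0.0633 in the others, and Asns was at 0.162 in library 3 and at 0.116 to 0.122 in the others. In monocyte/macrophage-like cells of library 2, Eprs was at 0.921 against 0.698 to 0.733 in the others, and Qars, in the opposite direction, at 0.314 against 0.360 to 0.364. In neutrophil-like cells of library 3, Tars was at 0.0314 against 0.0177 to 0.0194. Each value is a mean corrected count per cell.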

How the results depend on the processing

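For single members, 410 values over 18 culture alternatives kept direction and side of the threshold, 26 newly passed, 27 no longer passed and 25 changed sign, 24 of them without passing in either fit; over 16 tumor alternatives the counts were 356, 0, 8 and 4. In the cultures, 3 members and 1278 genes (14.8%) were lower with a pseudocount of 0.01. With a mean of at least 0.5, 3 of 12 tested members and 951 genes (23.5%) were lower. Without the cluster of most mitochondrial counts, 3 members and 1379 genes (15.9%) were lower. With log2 values centred on the median gene, 5 members and 2749 genes (31.8%) were higher and 7 members and 2251 genes (26.1%) lower. Leaving out each library in turn gave 2 to 15 members higher, 3 to 9 lower, 1112 to 3854 genes higher and 863 to 2950 lower, and changed the sign of Mars (-0.028 to 0.095), Wars (-0.0017 to 0.035), Yars (-0.029 to 0.086), Shmt2 (-0.044 to 0.15) and Sesn2 (-0.13 to 0.11, passing as lower without B-MF replicate 1 and as higher without B-MF replicate 2). Sesn2 was also above 0 without clusters of other cell types (0.16), without proliferating clusters (0.0011), without all of the clusters left out (0.15) and with the logarithms of single cells averaged (0.0039). Without clusters of other cell types, Rars (-0.023), Wars (-0.041), Yars (-0.023) and Shmt2 (-0.015) were below 0, and without the cluster of fewest mitochondrial counts Wars (-0.012) and Yars (-2.0e-05). Without all of these clusters so were Farsb (-0.0063), Hars (-0.0031), Kars (-0.026), Mars (-0.038), Rars (-0.027), Tars (-0.0016), Wars (-0.068), Yars (-0.037) and Shmt2 (-0.038). Replicate numbers do not mark a shared culture in the labels. With the replicate number as a block, 3 members were higher and 6 lower, and 2238 and 1670 genes, and the correlation of replicate deviations between the groups was 0.13 over genes.

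In the tumor, no filter gave 28 members lower and 8029 genes (52.7%) lower. Centring gave 2627 genes (44.0%) higher and 2499 (41.9%) lower, with Aars (0.13), Cars (0.41), Sars (0.35) and Nupr1 (0.091) changing sign. Without the library as a block, 5 members were higher and 18 lower, and 1200 and 4026 genes. Where no construction shows it, the cause was not tested. With 2 libraries a group, small culture differences rest on a spread shared across genes. The alternatives without the cluster of fewest mitochondrial counts, without all of these clusters, with the Arg1 cluster, and of cells without proliferation markers were chosen after seeing the data.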
